A study of Mus musculus with 11 samples.

Results

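Costimulatory and coinhibitory ligands are surface proteins with which a cell that presents antigen raises or lowers the response of the T cell in contact with it. The 7 genes described here, out of 56691 in the count table, were taken by name: Cd80, Cd86, Icosl, Cd274, Pdcd1lg2 and Cd276 of the B7 family, together with Cd52, which encodes a small glycoprotein held in the membrane by a lipid (GPI) anchor. All 7 were matched by symbol to an Ensembl identifier. Each passed the filter on low counts in every comparison.

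In the thymic medulla, epithelial cells that express Aire, the regulator of tissue-restricted genes, present self-antigens to developing T cells. CD80 and CD86 bind CD28 and CTLA-4 on T cells and ICOSL binds ICOS, and signals through CD28 are needed for regulatory T cells to form in the thymus. PD-L1, encoded by Cd274, and PD-L2, encoded by Pdcd1lg2, bind the inhibitory receptor PD-1. A high level of CD80 is a usual mark by which mature medullary epithelial cells are told from immature ones.

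RNA was sequenced from thymic epithelium of NOD mice, a strain prone to autoimmune diabetes, aged 4 to 8 weeks. The cells were EpCAM-positive and had been depleted of CD45-expressing cells, and the libraries came from low-input RNA. Aire was WT/WT in 3 libraries, WT/R249C in 5 and R249C/R249C in 3, where R249C is a missense variant of Aire carried on 1 or both copies. The labels give 2 batches. WT/WT replicate 1, WT/R249C replicates 1 to 3 and the whole R249C/R249C group are batch A. WT/WT replicates 2 and 3 and WT/R249C replicates 4 and 5 are batch B. The titles of WT/R249C replicates 4 and 5 read WT/R249C while their genotype fields read R249C/R249C, and they were grouped by title. Nothing says how many mice a library pools, so p-values measure the spread between libraries.

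Library totals ran from 60560348 to 182319976 counts, and levels are given as CPM, counts scaled to a common total per library. The epithelial marker Epcam was at 355 to 521 CPM. Ptprc, which encodes CD45, was at 13.6 to 26.2 CPM in WT/WT, 0.217 to 18.8 in WT/R249C and 6.95 to 17.6 in R249C/R249C. Its values in WT/R249C replicates 3 and 5, 0.248 and 0.217 CPM, stood far below those of the other 9 libraries. In these bulk samples, fewer cells of a type and less RNA per cell cannot be told apart.

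Per length, Icosl was the highest of the 7 genes and Cd86 the lowest. On the scale of CPM per kilobase of exon, the median of the 11 libraries was 109.5 for Icosl (46.4 to 192), 86.8 for Cd52 (28.4 to 105) and 22.2 for Cd274 (8.39 to 37.0). It was 8.39 for Cd80 (1.21 to 19.6), 7.58 for Pdcd1lg2 (0 to 11.1), 4.85 for Cd276 (0.0401 to 5.67) and 1.58 for Cd86 (0 to 4.79). The ranges of neighbours in this order overlapped in every case. Within a library, Icosl lay above Cd52 in 10 of 11, Cd52 above Cd274 in 11 of 11 and Cd274 above Cd80 in 11 of 11. The next steps were less regular, with Cd80 above Pdcd1lg2 in 8 of 11, Pdcd1lg2 above Cd276 in 8 of 11 and Cd276 above Cd86 in 9 of 11. Between the ligands that share a receptor, Cd80 lay above Cd86 and Cd274 above Pdcd1lg2 in 11 of 11 libraries each. The order of medians was the same when the longest transcript replaced the union of exons.

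**Figure D1:**
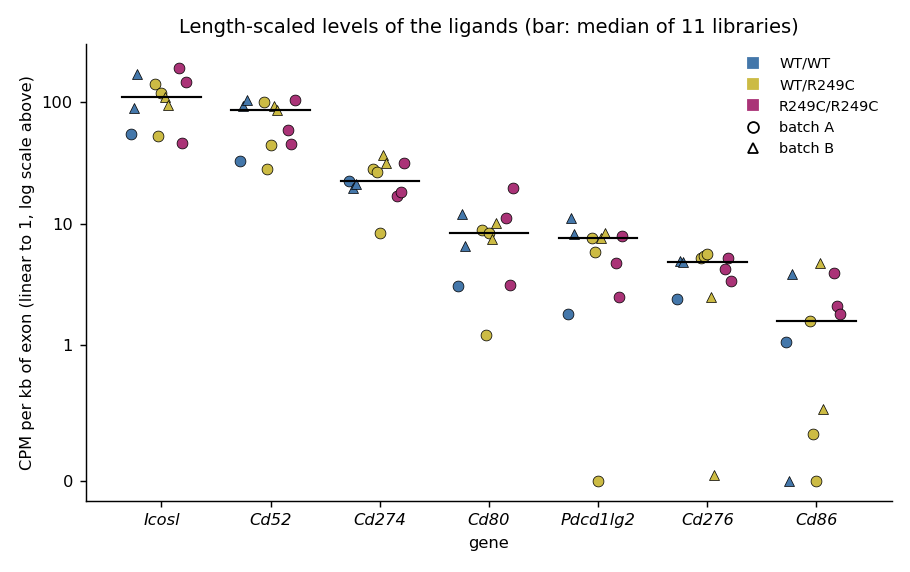
Level of each ligand in CPM per kilobase of exon (vertical axis, linear below 1 and logarithmic above), with 1 point per library, color for the Aire genotype, shape for the batch and a bar at the median of 11 libraries. Icosl and Cd52 sit at the top with medians of 109.5 and 86.8, and Cd86 at the bottom with 1.58.

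Cd80 had 11.3, 44.1 and 24.2 CPM in WT/WT replicates 1 to 3. WT/R249C replicates 1 to 5 had 32.7, 4.47, 31.1, 27.5 and 37.8 CPM, and R249C/R249C replicates 1 to 3 had 40.9, 11.6 and 72.8. The groups overlapped: the highest library was R249C/R249C replicate 3, but each genotype also held a library at or below 11.6 CPM. Means were 26.5 ± 16.5 (SD, n = 3), 26.7 ± 13.0 (n = 5) and 41.7 ± 30.6 CPM (n = 3) in the order WT/WT, WT/R249C, R249C/R249C. The fitted log2 fold change of R249C/R249C over WT/WT was 1.42 (SE 0.98, 95% interval -0.80 to 3.63), with an edgeR adjusted p of 1. For WT/R249C over WT/WT it was 0.36 (-1.38 to 2.09), and for R249C/R249C over WT/R249C, within batch A, 0.92 (-1.30 to 3.15).

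Cd86, the other ligand of CD28 and CTLA-4, was sparse. WT/WT replicates 1 to 3 held 2.70, 0 and 9.80 CPM, WT/R249C replicates 1 to 5 held 4.02, 0.878, 0, 12.2 and 1.34, and R249C/R249C replicates 1 to 3 held 10.01, 5.33 and 4.56. The 2 libraries with no Cd86 count were WT/WT replicate 2, where a count of 0 allows up to 0.0243 CPM, and WT/R249C replicate 3, where it allows up to 0.0495 CPM. Their Cd80 counts were 5441 and 1881. These limits cover counting error only. All 3 R249C/R249C libraries had Cd86, above every WT/R249C library of batch A, and this was the 1 non-overlap among the 21 contrasts of a member between 2 groups. In that comparison 3.45% of 23695 genes lay higher in R249C/R249C without overlap and 5.41% lower. For R249C/R249C against WT/WT 3.42% of genes lay higher and 4.68% lower without overlap, and for WT/R249C against WT/WT 1.1% and 1.83%. WT/R249C replicate 4 of batch B and WT/WT replicate 3, at 12.2 and 9.80 CPM, lie within or above the range of R249C/R249C. The fitted log2 fold change of R249C/R249C over WT/R249C was 2.01 (-2.54 to 6.56) with an edgeR adjusted p of 1.00, that of R249C/R249C over WT/WT 1.79 (-3.85 to 7.44), and that of WT/R249C over WT/WT -0.02 (-4.40 to 4.37).

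The balance of Cd80 to Cd86 counts within a library was uneven. In the 9 libraries with both, Cd80 had from 2.18 times (R249C/R249C replicate 2) to 28.3 times (WT/R249C replicate 5) the counts of Cd86, without scaling for length. On the log2 scale the ratio averaged 1.69 ± 0.54 over 2 WT/WT libraries, 2.84 ± 1.52 over 4 of WT/R249C and 2.38 ± 1.47 over 3 of R249C/R249C. These means lie within 1 SD of a mutant group from each other.

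Icosl, the ligand of the T cell receptor ICOS, was counted in all libraries. WT/WT replicates 1 to 3 had 152, 249.7 and 481 CPM, WT/R249C replicates 1 to 5 had 392, 147, 334, 308 and 268, and R249C/R249C replicates 1 to 3 had 540.4, 130.5 and 413. The spread was as wide within a genotype as between genotypes, and each genotype held 1 of the 3 lowest libraries. Means were 294 ± 169 (n = 3), 289.8 ± 91.8 (n = 5) and 361 ± 209.8 CPM (n = 3). Log2 fold changes were 0.70 (-0.90 to 2.29) for R249C/R249C over WT/WT, 0.18 (-1.08 to 1.44) for WT/R249C over WT/WT and 0.37 (-1.12 to 1.85) for R249C/R249C over WT/R249C, none of which passed. Leaving out WT/WT replicate 1 lowered the first to 0.12, and leaving out R249C/R249C replicate 2 raised it to 1.12.

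Cd274, which encodes PD-L1, was the most even of the 7 in WT/WT, at 80.5, 71.4 and 77.4 CPM in replicates 1 to 3. WT/R249C replicates 1 to 5 had 102, 97.1, 30.4, 134 and 113 CPM and R249C/R249C replicates 1 to 3 had 61.7, 65.7 and 115. Of the 5 WT/R249C libraries 4 lay above every WT/WT library and 1, replicate 3, below every other library of the series. Log2 fold changes were 0.34 (-0.85 to 1.53), 0.39 (-0.57 to 1.36) and 0.08 (-1.24 to 1.39) in the same order of comparisons.

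Pdcd1lg2, which encodes PD-L2, had 3.52, 21.7 and 16.1 CPM in WT/WT replicates 1 to 3. WT/R249C replicates 1 to 5 had 14.9, 11.5, 0, 14.9 and 16.5, and R249C/R249C replicates 1 to 3 had 9.37, 4.93 and 15.4. The single library without a count, WT/R249C replicate 3, was also the lowest in Cd274, and a count of 0 there allows up to 0.0495 CPM. Log2 fold changes were 0.71 (-3.62 to 5.05), 0.37 (-3.06 to 3.81) and 0.15 (-4.29 to 4.59). In the 10 libraries with both transcripts Cd274 had from 3.29 times (WT/WT replicate 2) to 22.9 times (WT/WT replicate 1) the counts of Pdcd1lg2. The log2 ratio averaged 2.83 ± 1.48 over 3 WT/WT libraries, 2.95 ± 0.21 over 4 of WT/R249C and 3.12 ± 0.54 over 3 of R249C/R249C, and these ranges overlapped. Cd274 and Pdcd1lg2 are direct neighbours on chromosome 19, with 0 protein-coding genes between them, while 24 lie between Cd80 and Cd86 on chromosome 16.

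Cd276, which encodes B7-H3, a family member with no settled receptor, had 8.70, 17.9 and 17.5 CPM in WT/WT replicates 1 to 3. WT/R249C replicates 1 to 5 had 18.7, 19.7, 20.4, 9.00 and 0.144, and R249C/R249C replicates 1 to 3 had 15.2, 19.001 and 12.3. All but 1 library lay between 8.70 and 20.4 CPM, and WT/R249C replicate 5 had 12 counts in all. Log2 fold changes were -0.85 (-4.29 to 2.59), -0.85 (-3.65 to 1.95) and -0.30 (-1.12 to 0.52). The sign of the first 2 rested on WT/R249C replicate 5: without it they were 0.04 and 0.15.

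Cd52 had 16.9, 47.7 and 53.5 CPM in WT/WT replicates 1 to 3, 51.8, 14.6, 22.99, 47.8 and 44.6 in WT/R249C replicates 1 to 5, and 30.3, 23.1 and 53.8 in R249C/R249C replicates 1 to 3. All 4 libraries of batch B lay at 44.6 CPM or above, and the 7 of batch A ran from 14.6 to 53.8. Log2 fold changes were 0.66 (-0.72 to 2.04), 0.27 (-0.83 to 1.36) and 0.28 (-1.15 to 1.70).

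**Figure D2:**
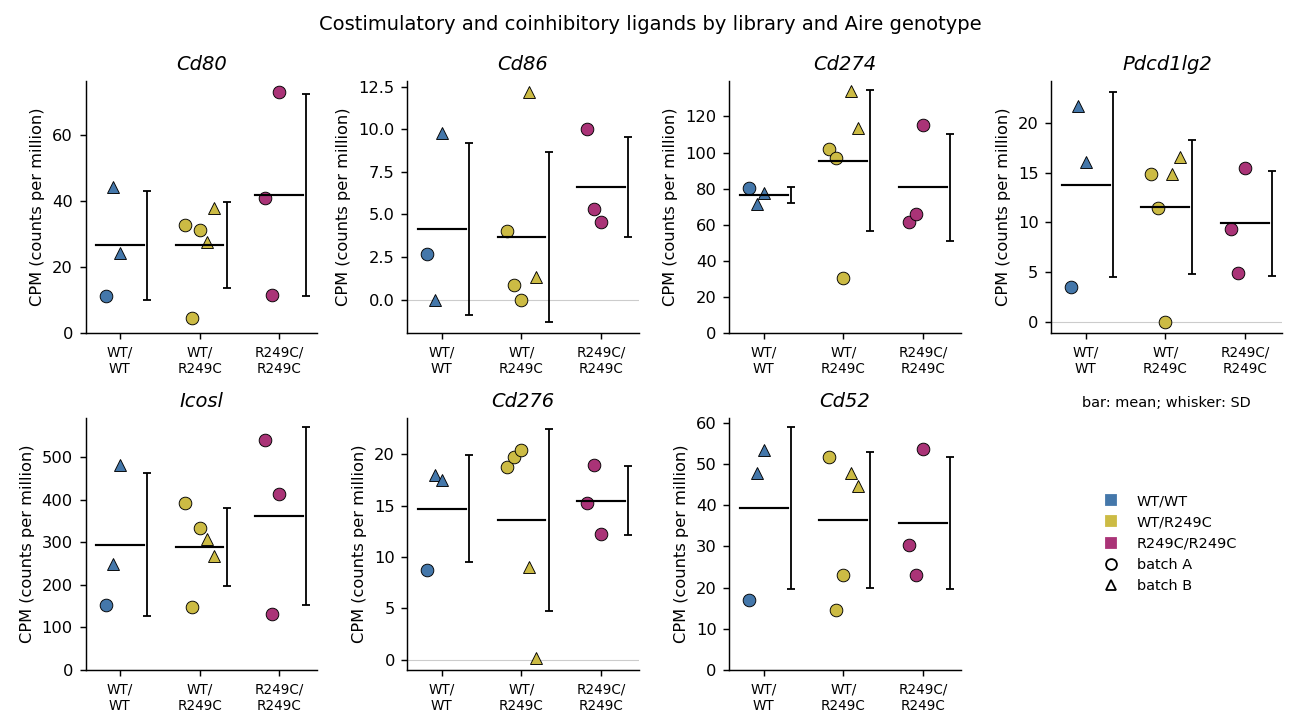
Level of each ligand in CPM (vertical axis, linear) by Aire genotype, with 1 point per library, circles for batch A and triangles for batch B, a bar at the group mean and a whisker of 1 SD. The genotypes overlap for each gene, and each of Cd80 and Icosl has 1 library of each genotype well below the others of its group (Cd80 at 4.47, 11.3 and 11.6 CPM).

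Across the 3 comparisons no ligand passed. By edgeR with Benjamini-Hochberg adjustment, 0 of 7 passed for R249C/R249C against WT/WT (0% of 26980 genes), 0 of 7 for WT/R249C against WT/WT (0% of 26980) and 0 of 7 for R249C/R249C against WT/R249C (0% of 23695). At an unadjusted p under 0.05 the counts were again 0 of 7 in each, where 3.21%, 3.48% and 1.08% of all genes lay under it. DESeq2 called 1.51%, 1.02% and 0.131% of the genes and limma voom 0%, 0% and 0%, with 0 of the 7 among them. The members' median log2 fold change was 0.70 for R249C/R249C over WT/WT, with 6 of 7 above 0, beside -0.02 over all genes, of which 49% were above 0. It was 0.27 with 5 of 7 above 0 for WT/R249C over WT/WT, beside 0.02 and 51.5%, and 0.28 with 6 of 7 above 0 for R249C/R249C over WT/R249C, beside 0.01 and 50.8%. Mean CPM was lower in R249C/R249C than in WT/WT for Pdcd1lg2 (9.91 against 13.8) and Cd52 (35.7 against 39.4). Without a batch term their fold changes were below 0. The means of Cd80, Cd86, Cd274, Icosl and Cd276 were higher. In WT/R249C the means of Pdcd1lg2, Icosl and Cd52 were below those in WT/WT, with fitted changes above 0. The first 2 comparisons share the WT/WT libraries. The third reuses the R249C/R249C libraries of the first and the batch A WT/R249C libraries of the second, so the signs of all 3 are not independent.

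Within batch A alone, where WT/WT is replicate 1 only, the log2 fold changes of R249C/R249C over WT/WT were 1.88 for Cd80, 1.26 for Icosl and 1.07 for Cd52. That WT/WT library was the lowest of its group for these 3 genes. For WT/R249C over WT/WT, batch A gave 0.95 for Cd80, 0.89 for Icosl and 0.79 for Cd52. Batch B, whose WT/R249C libraries have contradicting labels, gave -0.03, -0.29 and -0.09 for the same genes. For Cd274 the values were -0.08 in batch A and 0.78 in batch B. The widest intervals of the first comparison, for Cd86 and Pdcd1lg2, leave differences within them undetectable at this spread between libraries.

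**Figure D3:**
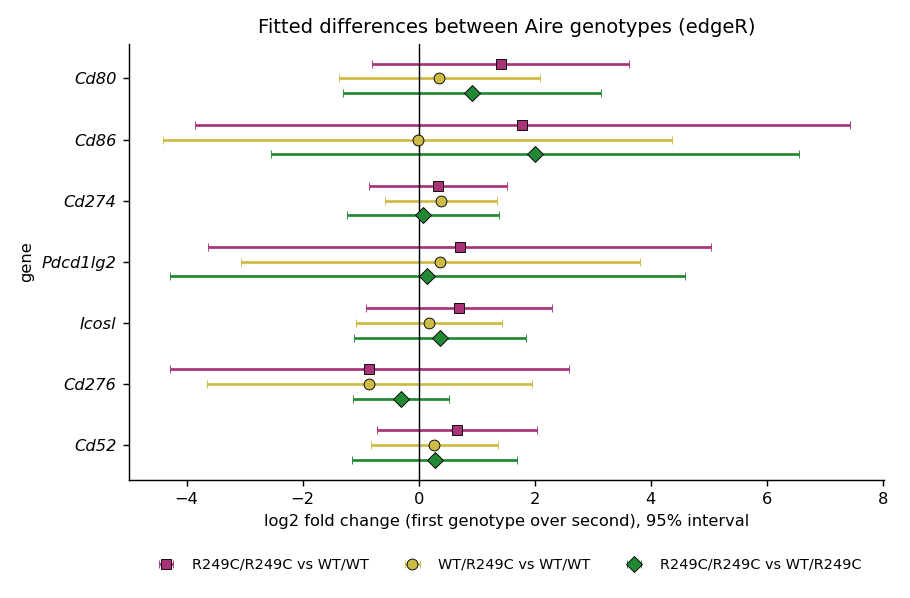
Fitted log2 fold changes of the 7 ligands with their 95% intervals (horizontal axis) for the 3 comparisons of Aire genotypes by edgeR. Each interval crosses 0, and those of Cd86 (-3.85 to 7.44 for R249C/R249C over WT/WT) and Pdcd1lg2 are among the widest.

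Across all 11 libraries, Icosl and Cd80 correlated with Aire, and for Cd80 this rested on the libraries lowest in Aire. Without the 3 lowest, the Pearson r of Icosl with Aire was 0.72 and did not pass after adjustment. The relation was not tested within a genotype. Aire itself was at 312, 391 and 768 CPM in WT/WT replicates 1 to 3, at 633, 174, 769, 589 and 425 in WT/R249C replicates 1 to 5, and at 634, 318 and 858 in R249C/R249C replicates 1 to 3. Its 3 lowest libraries were WT/R249C replicate 2, WT/WT replicate 1 and R249C/R249C replicate 2, 1 of each genotype and all of batch A. The same 3 were the lowest for Icosl and for Cd80. They were also the lowest for 3 of the 8 other listed markers of mature medullary epithelium: Fezf2, a second regulator of tissue-restricted genes (101, 125 and 192 CPM, against 243 or more elsewhere), Cd40, a receptor for T cell help (43.7, 49.9 and 51.2, against 108 or more), and Tnfrsf11a, which encodes RANK, the receptor that drives their maturation (19.2, 54.5 and 14.8, against 62.0 or more). The other 5 (H2-Aa, H2-Ab1, Cd74, Ciita and Ccl22) did not share these 3 lowest libraries. Ciita, the regulator of class II genes, was at 359.8 CPM in WT/WT replicate 1 and lowest in WT/WT replicate 2, at 216 CPM.

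Over the 11 libraries the Pearson r of log2(CPM + 1) with Aire was 0.877 for Icosl (permutation p = 0.00031, adjusted p = 0.00434 over 14 pairs) and Spearman's rho was 0.864 (permutation p = 0.00099, adjusted p = 0.0139). Without WT/WT replicate 1 and WT/R249C replicate 2, the libraries farthest from the median of Aire, r was 0.844 (permutation p = 0.00247, n = 9). Among the 8 libraries outside the lowest 3, a subset chosen after seeing the data, it was 0.72 (exact permutation p = 0.0459, adjusted p = 0.418). With WT/WT replicate 2 and WT/R249C replicate 5 also left out, it was 0.15 (exact permutation p = 0.74). Within batch A r was 0.866 (n = 7, exact permutation p = 0.0276, adjusted p = 0.174), and batch B holds 4 libraries, too few for a value. The relation of Icosl with Aire kept its direction in each of these subsets, and r ran from 0.863 to 0.904 when each library was left out in turn.

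For Cd80 the Pearson r with Aire was 0.817 (permutation p = 0.00256, adjusted p = 0.0179, n = 11), while Spearman's rho was 0.60 (permutation p = 0.0569, adjusted p = 0.265). It was 0.50 without the 2 libraries farthest from the median of Aire (permutation p = 0.174) and 0.03 among the 8 libraries outside the lowest 3, so the relation over all libraries rests on those low libraries. Leaving out WT/R249C replicate 2 alone gave 0.645 (adjusted p = 0.297). Within batch A r was 0.972 (n = 7, exact permutation p = 0.00179, adjusted p = 0.025). The 4 batch B libraries had Cd80 at 24.2 to 44.1 CPM over an Aire range of 391 to 768.

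Cd52 had an r of 0.688 with Aire that did not pass after adjustment (permutation p = 0.0194, adjusted p = 0.0905; rho 0.645, adjusted p = 0.258), and without the 2 farthest libraries it was 0.278. Taken as deviations from the batch means it was 0.766 (adjusted p = 0.0232), and among the 8 libraries outside the lowest 3 it was -0.14. The other 4 ligands gave 0.34 for Cd86, 0.06 for Cd276, -0.05 for Pdcd1lg2 and -0.15 for Cd274, none of which passed. The libraries low in Aire, Fezf2, Cd40 and Tnfrsf11a include 1 of each genotype, and their part in the genotype comparisons of Icosl and Cd80 was not tested.

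**Figure D4:**
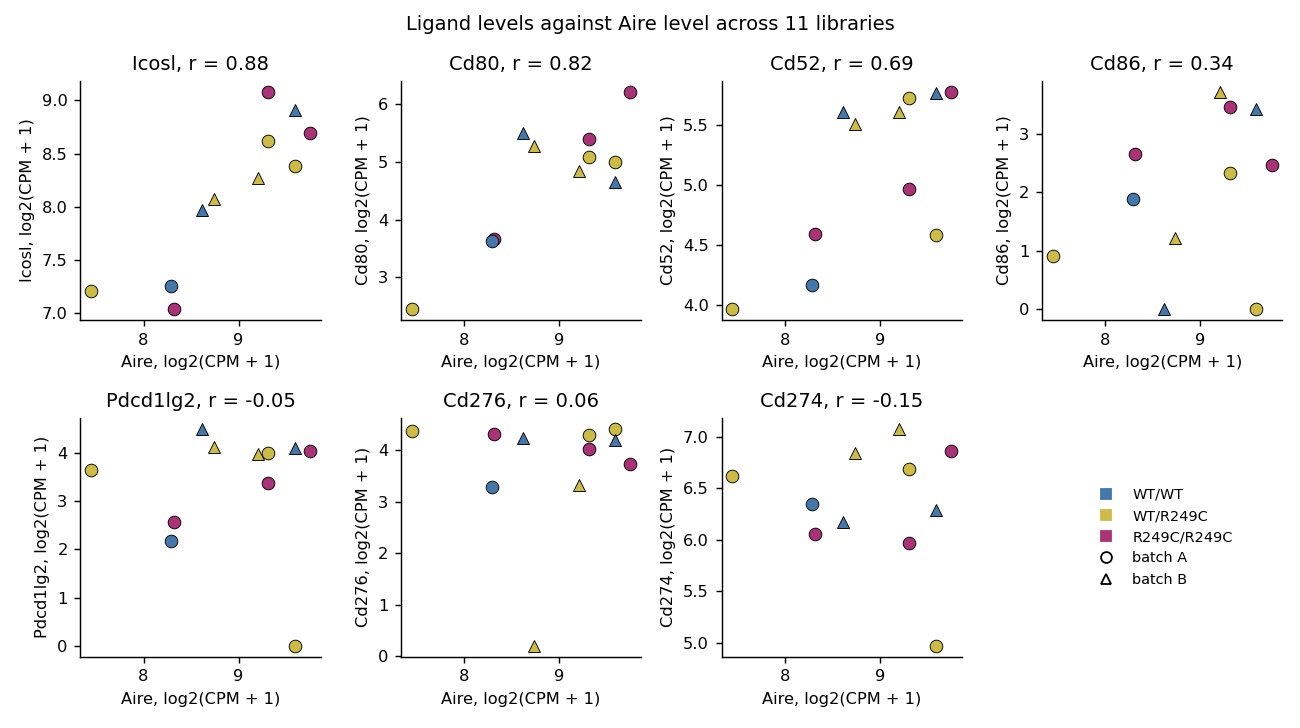
Level of each ligand against that of Aire, both in log2(CPM + 1), with 1 point per library, color for the genotype and shape for the batch. Icosl rises with Aire over all 11 libraries (r = 0.88) and among the 8 outside the lowest 3 (r = 0.72). Without WT/WT replicate 2 and WT/R249C replicate 5 as well, its r was 0.15. Cd80 is low in the 3 libraries lowest in Aire and shows no trend among the other 8 (r = 0.03). Cd274 shows no relation (r = -0.15).

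Icosl and Aire lie close together on chromosome 10, with 1 protein-coding gene, Dnmt3l, between them, while Cd80 is on chromosome 16. The 250 bases upstream of the RefSeq start (build GRCm38.p6, which is not the build of the counts) are shown for these 2 genes because their transcripts correlated with Aire. They were searched on both strands for GGG and CC with any 5 bases between them, a loose form of the NF-kB site, for TTC and GAA with any 3 bases between them, the gamma-activated site, and for GAAA and GAAA with any 2 bases between them, the interferon response element. Capitals mark matches to the first motif. Icosl is at chr10:78069118-78069367 and Cd80 at chr16:38458683-38458932, both on the plus strand.
Icosl: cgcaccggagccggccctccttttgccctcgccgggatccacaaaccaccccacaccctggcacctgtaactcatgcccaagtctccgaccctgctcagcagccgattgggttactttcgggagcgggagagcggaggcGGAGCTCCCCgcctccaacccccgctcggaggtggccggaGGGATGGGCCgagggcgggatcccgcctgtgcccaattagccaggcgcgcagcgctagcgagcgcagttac
Cd80: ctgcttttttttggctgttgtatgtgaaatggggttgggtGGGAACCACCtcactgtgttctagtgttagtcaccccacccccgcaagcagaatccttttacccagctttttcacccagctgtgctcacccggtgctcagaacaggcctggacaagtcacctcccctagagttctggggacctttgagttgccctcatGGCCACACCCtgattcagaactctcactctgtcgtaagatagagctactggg
Each window holds 2 matches to the NF-kB form and none to the other motifs, and 45.8% of all 32851 windows of this length hold at least 1 match. A match is a description of the letters and not a measured site. RefSeq windows were found for 5 of the 7 genes. Those of Cd274 and Aire hold no match to it, and that of Pdcd1lg2 holds 2, on opposite strands at the same place. That of Cd276 holds 10, several of which overlap or lie on opposite strands at the same place. Cd276, with the most matches of these windows, had an r of 0.06 with Aire. Whether matches go with the correlation with Aire was not tested.

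No correlation of a ligand with Ptprc passed the adjusted threshold (r from -0.34 for Cd80 to 0.54 for Cd86, adjusted permutation p of 0.299 or more, n = 11). WT/R249C replicates 3 and 5, where Ptprc was nearly 0, had Cd80 at 31.1 and 37.8 CPM and Icosl at 334 and 268. They had Cd274 at 30.4 and 113 and Cd52 at 22.99 and 44.6. They also had the fewest genes with a count, 22101 and 23073, against 24989 or more in the other libraries. The 8 B cell markers summed to 491 and 108 CPM in them. Whether their low Ptprc reflects fewer blood cells or sparse detection was not tested. These 2 libraries also held the sparse values: Cd86 at 0 and 1.34, Pdcd1lg2 at 0 in replicate 3 and Cd276 at 0.144 in replicate 5. Without both, the r of Cd52 with Aire was 0.862 (adjusted permutation p = 0.0166, n = 9).

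The sorted libraries also held transcripts of blood cells that can carry these ligands. The 8 B cell markers summed to 1425 to 3025 CPM in WT/WT, 108 to 491 in WT/R249C and 267 to 550.0 in R249C/R249C, and all 8 had a fitted log2 fold change below 0 for R249C/R249C over WT/WT. Ms4a1 was at 0 in all R249C/R249C libraries. The 9 thymocyte markers summed to 153 to 216, 79.0 to 162 and 94.1 to 138 CPM, with 8 of 9 below 0. The 8 dendritic cell markers summed to 78.8 to 110.0, 47.8 to 90.3 and 66.1 to 77.0 CPM, with 3 of them at 0 in all WT/WT libraries, and of the 7 tested 5 were above 0 (median 1.28). The 8 macrophage markers summed to 84.4 to 290, 72.3 to 279 and 79.6 to 236, with 6 of 8 above 0 (median 1.47). None passed by edgeR. Their part in the levels of Cd80, Cd86, Pdcd1lg2 and Cd52 was not tested.

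The receptors that these ligands bind were mostly low in the same libraries. Pdcd1, which encodes PD-1, was at 0 in 10 of 11 libraries and at 0.186 CPM in WT/R249C replicate 4, Ctla4 was at 0 to 2.58 CPM, Icos at 0 to 4.67 and Siglecg, which belongs to the lectin family that binds CD52, at 0 to 3.31. Cd28 was higher, at 9.52 to 20.9 CPM over the libraries, and Rgmb, a receptor of PD-L2 found on many cell types, was at 49.6 to 134. Of the 5 receptors tested for R249C/R249C against WT/WT, 3 had a fold change above 0 and 2 below, and 0 passed. Rgmb was at 83.3 ± 2.83, 94.4 ± 28.0 and 81.1 ± 31.8 CPM in R249C/R249C, WT/R249C and WT/WT, and Cd28 at 14.01 ± 4.31, 15.1 ± 4.64 and 17.5 ± 1.04 (n = 3, 5 and 3).

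Among 7 other genes of the B7 and butyrophilin families that were tested, 2 lay higher and 5 lower in R249C/R249C than in WT/WT, with a median log2 fold change of -0.40, and 4 lay higher and 3 lower in WT/R249C than in WT/WT (median 0.38), with 0 passing. Vsir, which encodes the inhibitory ligand VISTA, was at 35.7 ± 18.5, 26.1 ± 18.1 and 29.2 ± 3.94 CPM in R249C/R249C, WT/R249C and WT/WT, and at 0.541 in WT/R249C replicate 5. Btnl1, a butyrophilin-like protein that shapes gamma-delta T cells of the gut, was at 7.41, 10.03 and 9.32 CPM in WT/WT replicates 1 to 3. It was at 5.91 or lower in all WT/R249C libraries and at 4.74 or lower in all R249C/R249C libraries, so WT/WT did not overlap with either. Such genes made up the 1.83% and 4.68% given above. Its log2 fold changes, -1.43 and -1.82, did not pass by edgeR (unadjusted p of 0.387 and 0.389).

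Of 19 further genes of T cell costimulation or inhibition, of the TNF and other families, 14 lay higher and 5 lower in R249C/R249C than in WT/WT (median 0.33), and 13 higher and 6 lower in WT/R249C (median 0.35), with 0 passing. Cd48, a ligand of the receptor 2B4 found mainly on blood cells, was at 6.72, 3.18 and 4.83 CPM in WT/WT replicates 1 to 3. It was at 1.88 or lower in all 8 mutant libraries. Its log2 fold changes were -2.61 in R249C/R249C and -2.95 in WT/R249C (unadjusted edgeR p of 0.320 and 0.164). Of all genes tested, 4.68% lay lower than WT/WT without overlap in R249C/R249C and 1.83% in WT/R249C. Lgals9, which encodes the TIM-3 ligand galectin-9, was at 430 ± 99.3 CPM in WT/R249C against 302 ± 63.7 in WT/WT (0.59, unadjusted p = 0.0495, adjusted p = 1). The adhesion ligand Icam1 was at 569 ± 102.5, 551 ± 220.2 and 456 ± 151 CPM in R249C/R249C, WT/R249C and WT/WT.

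Genes that induce PD-L1 or keep it on the surface were split. Of 10, 6 lay higher and 4 lower in R249C/R249C than in WT/WT (median 0.06), and 4 higher and 6 lower in WT/R249C (median -0.08). Cmtm4, which protects PD-L1 from degradation, was at 6.07 ± 3.13 CPM in WT/R249C and 8.29 ± 1.22 in R249C/R249C against 18.8 ± 9.04 in WT/WT (-1.64 for WT/R249C, unadjusted p = 0.0200, adjusted p = 1), and it did not pass.

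For CD80 and CD86, the surface level also depends on their removal. Of 4 genes listed for their turnover and transport, 2 lay higher and 2 lower in R249C/R249C than in WT/WT, and 0 passed. Cd83, which holds CD86 and class II molecules on the surface, was at 122 ± 26.5, 129 ± 35.3 and 112 ± 7.81 CPM in R249C/R249C, WT/R249C and WT/WT. Of the ubiquitin ligases that take CD86 off the surface, March8 was at 52.8 ± 27.1, 41.8 ± 18.97 and 44.9 ± 7.79 CPM in the same order. March1 was at 0.223 ± 0.370, 4.68 ± 9.17 and 0.572 ± 0.977 CPM, where WT/R249C replicate 3 had 21.04 CPM and the other 10 libraries 1.72 or less. Of 6 genes for GPI anchors, on which CD52 depends, 2 lay higher and 4 lower in R249C/R249C than in WT/WT (median -0.17), with Pigt at 217 ± 32.3 CPM against 225 ± 69.8.

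The genes most like each ligand across the 11 libraries, among 10331 compared by Pearson r of log2(CPM + 1), differed between ligands. For Icosl they were Tmem173, which encodes the DNA sensor adaptor STING (r = 0.958), the protease Mep1a (0.949) and the metalloprotease Adam8 (0.948), and Aire ranked 67. For Cd80 they were the RNA-binding protein Mex3a (0.907), the immune proteasome activator Psme2 (0.899) and Mfhas1 (0.886), and Aire ranked 43. For Cd52 they were Bcl2a1d (0.974), which has near-identical copies so that its counts are uncertain, Tm4sf5 (0.956) and the chemokine Ccl27b (0.951), which also has copies. Pdcd1lg2 went with Mtpap (0.964), the immune proteasome subunit Psmb8 (0.957) and Commd5 (0.955), and Cd274 with Tmem33 (0.927), Rhox4a2 (0.920) and Rnf181 (0.920). Cd86 went with Krt222 (0.941), Scrn2 (0.920) and Cpt2 (0.913). Cd276 went with Nolc1 (0.975), Ncapg2 (0.969) and Klhdc4 (0.966), and within batch A, without the library of 12 counts, these fell to 0.851, 0.601 and 0.633. These are descriptions over libraries that share their depth and sparsity, with no test.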

How the data were processed

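The authors deposited a table of raw counts, 1 whole number for each gene in each library. The submitters' processing notes name FastQC, HISAT2, StringTie and the build mm39. Whether counts are tallied reads or derived from StringTie coverage, and the annotation release, are not given in the sources used here. Column names of the 7 batch A libraries carry the word trimmed, per the file headers.

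Symbols were matched for 52073 of 56691 genes. Differences were tested with edgeR 4.0.16 in R 4.3.3 (quasi-likelihood, robust, TMM, filterByExpr), two-sided, Benjamini-Hochberg over all genes tested, threshold 0.05. Both comparisons with WT/WT came from 1 fit of the 11 libraries that had batch as a term, and the 2 mutant genotypes were compared within batch A (6 libraries). SE and 95% intervals were derived from the fit. Correlations used log2(CPM + 1) and permutation with 100000 resamples, or exact for up to 8 libraries, adjusted over 14 pairs. Lengths came from an older GENCODE annotation. DESeq2 1.42.0, limma 3.58.1, scaling, filters, batch, contested labels, a replicate block and leaving out each library were alternatives. Fits were tested on simulated data.

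The members and lists were chosen with earlier results of these data known. Named genes are the members, Aire, Ptprc, up to 4 genes per list of smallest p, and the 3 genes most like each member, while Fezf2, Cd40, Tnfrsf11a, H2-Aa, H2-Ab1, Cd74, Ciita, Ccl22, Epcam, Pdcd1, Ctla4 and Ms4a1 were named after their values were seen. All 118 matched of 119 list entries came from lists of 64 markers and 55 pathway genes. Proteins are not shown, and 1 list gene that the rule names is not reported here.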

Additional observations from a re-analysis of the deposited data

How the results depend on the processing

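Counts of called genes were 0 in each comparison with edgeR and moved only with DESeq2, to 408, 275 and 31 genes, while limma voom called 0. Over 22, 23 and 14 alternatives no ligand passed, and the smallest adjusted p were 0.843 (Cd80, DESeq2), 0.812 (Cd276, batch A) and 0.930 (Cd86, no filter). Whether replicate numbers pair the libraries could not be settled. Of 9 same-numbered pairs 1 had a correlation of deviations above 0.1 (-0.128 to 0.124), beside 4 of 30 differently numbered pairs. Some same-numbered pairs cross batches, and deviations were taken from group means only. Within batch A, same-numbered WT/R249C and R249C/R249C libraries had 0.124, 0.0893 and 0.0244. WT/WT replicate 1 had -0.128 and -0.0506 with replicate 1 of these groups. A fit with the numbers as a replicate block called 0, 0 and 0 genes. In it Icosl had unadjusted p of 0.00458 and 0.0085 against WT/WT, and signs turned for Cd276 (0.84 in R249C/R249C and 1.16 in WT/R249C) and Cd86 (0.086 in WT/R249C). Over all alternatives 54 recomputed fold changes turned sign and 359 kept both their sign and their side of the threshold. Of the recomputed correlations 26 turned sign, 202 kept both, 3 gained the threshold and 7 lost it. None of those that turned sign had passed. The cause was not tested.

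For R249C/R249C over WT/WT, Cd276 turned to 0.84 in batch A, 0.83 without the contested libraries, 0.12 without a batch term and 0.074 without the sparsest WT/R249C libraries (replicates 3 and 5, added after seeing the data). Without a batch term Pdcd1lg2 was -0.42 and Cd52 -0.092, and without the contested libraries Cd274 was -0.0014. For WT/R249C over WT/WT, batch A gave -0.076 for Cd274 and 1.13 for Cd276. Batch B gave -0.035 for Cd80, 0.55 for Cd86, -0.23 for Pdcd1lg2, -0.29 for Icosl and -0.090 for Cd52. With the contested libraries left out, Cd274 was -0.078 and Cd276 1.13, and with them counted as R249C/R249C, Cd80 was -0.027. Limma voom gave -0.014 for Cd80, 3.23 for Cd86, -0.014 for Icosl and 0.022 for Cd276. With no batch term Pdcd1lg2 was -0.21 and Cd52 -0.084, and without the sparsest libraries Cd86 was 0.64 and Cd276 0.11. For R249C/R249C over WT/R249C, a fit of all 11 libraries gave -0.056 for Cd274 and 0.00032 for Cd276, limma voom -0.32 for Cd274 and -0.11 for Pdcd1lg2, and the fit without the sparsest libraries -0.33 for Cd274 and -0.44 for Pdcd1lg2.

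Leaving out each library in turn, R249C/R249C over WT/WT ran from 0.79 to 1.88 for Cd80, 0.12 to 1.12 for Icosl, -0.039 to 1.08 for Pdcd1lg2 and -2.64 to 0.044 for Cd276. WT/R249C over WT/WT ran from -0.033 to 0.74 for Cd80, -1.24 to 0.84 for Cd86, -0.23 to 0.67 for Pdcd1lg2, -0.29 to 0.54 for Icosl, -2.72 to 0.15 for Cd276 and -0.086 to 0.41 for Cd52. The lowest values of Cd80, Pdcd1lg2, Icosl and Cd52 came without WT/WT replicate 1. R249C/R249C over WT/R249C ran from -0.33 to 0.36 for Cd274, -0.44 to 0.78 for Pdcd1lg2, -0.069 to 0.78 for Icosl and -0.11 to 1.01 for Cd52.

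Among correlations, those of Icosl and Cd80 with Aire kept their sign in every alternative run. The r of Cd80 ran from 0.645 to 0.890 in the 11 settings that leave out a library. It lost the threshold in 4 of them (WT/WT replicate 1, WT/R249C replicate 2, R249C/R249C replicates 2 and 3). That of Icosl lost it in batch A (0.866). Both lost it without the 3 libraries lowest in Aire (0.72 for Icosl and 0.03 for Cd80). With Aire, leaving out each library gave -0.29 to 0.17 for Cd274, -0.15 to 0.42 for Pdcd1lg2, -0.083 to 0.26 for Cd276 and 0.505 to 0.837 for Cd52, which passed without WT/R249C replicate 3. With Ptprc it gave -0.37 to 0.69 for Cd274, -0.37 to 0.69 for Pdcd1lg2, -0.38 to 0.84 for Cd276 and -0.25 to 0.14 for Cd52. Without the sparsest libraries r with Aire was 0.20 for Cd274, 0.45 for Pdcd1lg2 and -0.20 for Cd276, and r with Ptprc was -0.18, -0.43 and -0.23. Without the 3 libraries lowest in Aire, r was -0.14 for Cd52 with Aire, and 0.39 for Icosl and 0.565 for Cd52 with Ptprc. In batch A Cd276 had -0.036 with Aire and -0.43 with Ptprc, and the r of Cd52 with Ptprc was 0.023 with TMM-scaled CPM and 0.0042 as deviations from batch means.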
